A study of Mus musculus with 6 samples.

Results

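The Ikaros family is a group of 5 zinc-finger transcription factor genes, Ikzf1 (Ikaros), Ikzf2 (Helios), Ikzf3 (Aiolos), Ikzf4 (Eos) and Ikzf5 (Pegasus). Each was taken by its exact symbol from a deposited table of 22381 genes, and all 5 had a single row. RNA was sequenced from LSK cells, bone marrow cells without lineage markers and with Sca-1 and c-Kit on their surface, among which are blood stem cells and multipotent progenitors. The mice were C57BL/6 and 8 to 12 weeks old. By the labels 3 samples were Tgif1-/-, without the homeodomain repressor Tgif1, and 3 were WT. The labels do not say whether separate mice gave the 3 samples of each group, so the authors' p-values may cover technical spread only. They also do not say which part of Tgif1 was removed. The table gives 1 FPKM value for each group (fragments set against transcript length and the library total), with the authors' Cuffdiff test and no value per sample, so the spread between samples and the depth are unknown. In this bulk RNA, fewer cells of a type and less RNA per cell cannot be told apart.

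Ikaros proteins bind DNA through zinc fingers near the N-terminus and join each other through a further set of fingers at the C-terminus, so that members can pair with themselves or with relatives. They recruit chromatin complexes, above all the nucleosome remodelling and deacetylase complex NuRD, and can repress or activate genes. In blood, Ikaros is needed for lymphoid development and acts as early as the multipotent progenitor, Helios is found in stem cells and in regulatory T cells, Aiolos increases as cells commit to lymphoid lineages, Eos works with Foxp3 in regulatory T cells, and Pegasus is the most divergent member. Splice forms of Ikaros that lack DNA-binding fingers can block the full-length protein, and a value per gene such as FPKM does not separate them.

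The kinship of the members shows in the coding sequence of the second zinc finger, printed here because it shows how alike the genes are that the reads had to be assigned to. The stretches of 63 bases come from the longest complete coding transcript of each gene in GENCODE M21 (GRCm38), run 5′ to 3′ on the coding strand, and carry in capitals the codons for the zinc-binding cysteines and histidines.
Ikzf1: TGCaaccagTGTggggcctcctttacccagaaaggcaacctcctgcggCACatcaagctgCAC
Ikzf2: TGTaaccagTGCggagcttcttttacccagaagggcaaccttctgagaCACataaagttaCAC
Ikzf3: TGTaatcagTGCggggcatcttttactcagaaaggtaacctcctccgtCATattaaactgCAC
Ikzf4: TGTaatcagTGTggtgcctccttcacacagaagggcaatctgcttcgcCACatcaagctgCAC
Ikzf5: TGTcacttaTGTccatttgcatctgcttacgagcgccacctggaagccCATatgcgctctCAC
These stretches lie in single coding exons at chr11:11754024-11754086 (+ strand, Ikzf1), chr1:69570581-69570643 (- strand, Ikzf2), chr11:98488940-98489002 (- strand, Ikzf3), chr10:128640229-128640291 (- strand, Ikzf4) and chr7:131392501-131392563 (- strand, Ikzf5) in GRCm38. Among Ikzf1 to Ikzf4 the stretches differed at 10 to 15 of 63 bases, and every one of those differences was synonymous, so all 21 codons kept their meaning in each of the 6 pairs. Ikzf5 differed from the others at 33 to 37 bases and shared the meaning of 5 codons with each of them. Among these were the codons in capitals, which the search for fingers itself looked for. A search of the translated transcripts for the pattern of 2 cysteines followed by a histidine and a histidine or cysteine found 4 fingers in the N-terminal part of Ikzf1 to Ikzf4 and 3 in that of Ikzf5. The second finger is the second match of this search. With 3 matches against 4, the stretch of Ikzf5 may not be the counterpart of the others.

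Shared protein sequence did not mean long shared runs of bases. Over whole coding sequences the longest identical run in any of the 10 pairs was 26 bases, between Ikzf1 and Ikzf3, and the shortest of these longest runs was 11 bases, between Ikzf2 and Ikzf5. The sources used here give no read length, so the share of reads that could have been placed on the wrong member was not measured.

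The targeted gene did not check the labels. Tgif1 stood at 88.6 FPKM in cells labelled Tgif1-/- and at 71.5 FPKM in cells labelled WT, and the authors' deposited table marks its test as failed. Each direction here is therefore one between groups as labelled. Of the sort markers, Kit, which encodes c-Kit, stood at 193 FPKM in cells labelled Tgif1-/- and 202 FPKM in cells labelled WT, and Ly6a, which encodes Sca-1, at 120 FPKM in cells labelled Tgif1-/- and 88.9 FPKM in cells labelled WT. All 12 listed LSK markers were at 4.02 FPKM or more in both groups. The whole table held 10730 tested genes, and 3143 genes with a failed test.

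None of the 4 tested Ikaros family genes was called different. A gene is called here where the authors' deposited q is at or under 0.05. Of the 5 members, 4 were tested and 0 were called by Cuffdiff, against 0.662% of all 10730 tested genes. In a family this small that count lies near the share. The test of the remaining member, Ikzf1, failed. At an unadjusted p under 0.05 there was 1 member, Ikzf3, against 5.41% of all tested genes, or 1.85% in the direction of Ikzf3. With each implied error (the log2 ratio divided by the authors' test statistic) raised at least to the median of its expression bin of tested genes, 0 members were called, against 0.197% of genes. That step only raises errors, so it is no check on missed calls. The tested members lay on both sides of 0 (2 higher and 2 lower in cells labelled Tgif1-/-), and their median log2 ratio was 0.05, beside -0.03 over all tested genes.

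In level, the family was dominated by Ikaros. Ikzf1 stood at 236 FPKM in cells labelled Tgif1-/- and 295 FPKM in cells labelled WT, above 97.5% of all rows of the table in cells labelled Tgif1-/- and 98.0% in cells labelled WT. It made up 79.4% of the summed FPKM of the 5 genes in cells labelled Tgif1-/- and 83.2% in cells labelled WT. Pegasus and Helios came next. Ikzf5 lay above 81.5% of rows in cells labelled Tgif1-/- and 82.3% in cells labelled WT, and Ikzf2 above 78.3% in cells labelled Tgif1-/- and 76.1% in cells labelled WT. Aiolos and Eos were low, between 0.488 and 1.41 FPKM in either group. The order of levels was Ikzf1, Ikzf5, Ikzf2, Ikzf3, Ikzf4 in cells labelled Tgif1-/- and Ikzf1, Ikzf5, Ikzf2, Ikzf4, Ikzf3 in cells labelled WT. With no value per sample, it could not be said which neighbours in these orders differ beyond their spread.

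**Figure D1:**
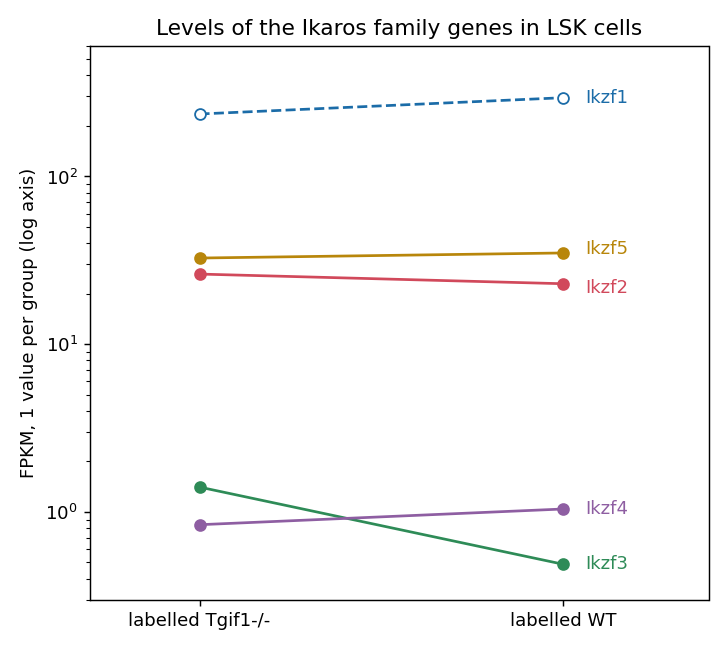
FPKM of each Ikaros family gene in cells labelled Tgif1-/- (left) and cells labelled WT (right), 1 authors' value per group of 3 samples, on a log axis; the open points and dashed line mark the failed test of Ikzf1. Ikzf1 sits at 236 FPKM in cells labelled Tgif1-/- and 295 FPKM in cells labelled WT, Ikzf2 and Ikzf5 between 22.9 and 35.0 FPKM, and the lines of Ikzf3 and Ikzf4 cross.

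Ikzf1 (ENSMUSG00000018654, Ikaros), the founding member and a regulator of lymphoid fate in multipotent progenitors, had the largest difference in FPKM. With 236 FPKM in cells labelled Tgif1-/- and 295 FPKM in cells labelled WT the difference was -59.1 FPKM, the ratio 0.80 and the log2 ratio -0.32. The authors' deposited table marks its Cuffdiff test as failed and sets its p-value to 1, so this difference has no error and no test. Failure was common at such levels: 493 of 1411 rows averaging 100 FPKM or more (34.9%) had a failed test, against 24.5% of rows averaging 1 FPKM or more. Among those 493 rows the median log2 ratio was 0.00, and 10 of them (2.03%), Ikzf1 included, had a log2 ratio as low as that of Ikzf1. Of the 918 tested genes at that level, 11 had a ratio as low (1.20%), and 1 of those 11 was called. Tested genes between 200 and 350 FPKM had a median implied standard error of 0.19 (log2), which is not the error of Ikzf1 itself.

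Ikzf2 (ENSMUSG00000025997, Helios), the member known from stem cells, stood at 26.2 FPKM in cells labelled Tgif1-/- and 22.9 FPKM in cells labelled WT. The log2 ratio of 0.19 had an implied standard error of 0.20, the error that the authors' statistic implies and not a spread between samples, and q was 1.00 in the authors' deposited table (p = 0.331). The 95% interval from that error ran from 0.87 to 1.49 as a ratio. The level of Ikaros relative to Helios was 9.0 in cells labelled Tgif1-/- and 12.9 in cells labelled WT, a comparison for which no test exists because that of Ikzf1 failed.

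Ikzf3 (ENSMUSG00000018168, Aiolos), which is most abundant in maturing B cells and also in T and NK cells, had the largest ratio of the family. Its value was 1.41 FPKM in cells labelled Tgif1-/- and 0.488 FPKM in cells labelled WT, a ratio of 2.88, or 1.53 ± 0.65 on the log2 scale (implied standard error). The Cuffdiff p in the authors' deposited table was 0.0180 and the q 0.584, so the gene did not pass the test. The 95% interval ran from 1.20-fold to 6.93-fold before adjustment for the number of genes. Both values are low, and with a pseudocount of 1 FPKM the log2 ratio was 0.69. Of 1724 tested genes averaging between 0.5 and 2 FPKM, 21 (1.22%), Ikzf3 included, had a log2 ratio as high, and 2 of these were called.

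Markers of the lineages in which Aiolos is abundant did not all stand on the side of Ikzf3. Among B cell markers 10 were tested, with 8 lower and 2 higher in cells labelled Tgif1-/-; 5 were called lower (Igll1, Blnk, Ebf1, Cd79a and Siglecg), beside 0.373% of all tested genes, and 0 higher. With the error floor above, the adjusted p of Siglecg was 0.0844 and its call was lost. The summed level of the 12 listed markers was 61.9 FPKM in cells labelled Tgif1-/- and 126 FPKM in cells labelled WT. Of 9 tested T and NK cell markers 5 were higher and 4 lower. Cuffdiff called 0, beside 0.662% of all tested genes. At an unadjusted p under 0.05 there was 1, on the lower side, beside 3.55% of all tested genes on that side. Over the tested markers with values above 0 in both groups, the median log2 ratio was 0.16. This leaves out Cd3g, 1 of the lower ones. The 13 listed markers summed to 357 FPKM in cells labelled Tgif1-/- and 362 FPKM in cells labelled WT, of which Nkg7 alone, a granule protein gene of cytotoxic cells, held 316 FPKM in cells labelled Tgif1-/- and 313 FPKM in cells labelled WT, so the sum describes that gene rather than the list. Among the rest was Cd3g, a chain of the T cell receptor complex, listed at 0 in cells labelled Tgif1-/-. Mast cell and basophil markers were all on the higher side, 9 of 9 tested, where 57.4% of all tested genes were lower, and 4 were called higher (Prss34, Mcpt8, Ms4a2 and Cpa3), beside 0.289% of all tested genes. All 10 listed, of which Tpsab1 was listed at 0 in both groups, summed to 391 FPKM in cells labelled Tgif1-/- and 158 FPKM in cells labelled WT. The called markers are named after their values were seen. The part of these cell types in the values of the Ikaros family was not tested.

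Ikzf4 (ENSMUSG00000002578, Eos), the partner of Foxp3 in regulatory T cells, stood at 0.839 FPKM in cells labelled Tgif1-/- and 1.04 FPKM in cells labelled WT. The log2 ratio of -0.31 had an implied standard error of 0.81, and q was 1.00 in the authors' deposited table (p = 0.700). The interval of the ratio ran from 0.27 to 2.41, the widest of the family on the log2 scale.

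Ikzf5 (ENSMUSG00000040167, Pegasus), which binds another DNA motif than its relatives, stood at 32.6 FPKM in cells labelled Tgif1-/- and 35.0 FPKM in cells labelled WT. The log2 ratio of -0.10 had an implied standard error of 0.26, q was 1.00 in the authors' deposited table (p = 0.701), and the interval of the ratio ran from 0.65 to 1.33. The table lists it under a shared position block of 33 genes that spans 3010 kb of chromosome 7, whereas each of the other 4 members has a block of its own. In GENCODE M21 Ikzf5 overlaps the gene Pstk on the opposite strand by 5831 bases. Pstk, a kinase for selenocysteine tRNA, stood at 32.4 FPKM in cells labelled Tgif1-/- and 36.3 FPKM in cells labelled WT, close to Ikzf5 in both. The 5831 bases are of whole gene spans, introns included, and the overlap of exons was not measured. The sources used here do not give strand use in counting, so it is not known whether the values of Ikzf5 and Pstk share reads. All 21870 bases of Ikzf5 also lie within the annotated span of Fgfr2, a growth factor receptor gene on the same strand, which stood at 0.0382 FPKM in cells labelled Tgif1-/- and was listed at 0 in cells labelled WT. The genes that overlap the other 4 members in GENCODE M21 are all non-coding.

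**Figure D2:**
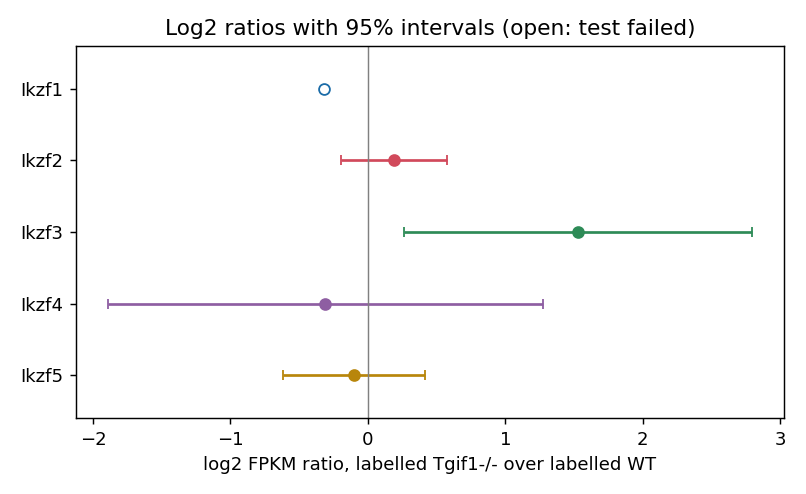
Log2 FPKM ratio of each member, labelled Tgif1-/- over labelled WT, with the 95% interval from the error implied by the authors' statistic; the open point of Ikzf1 has no interval because its test failed. The interval of Ikzf3 lies above 0 before adjustment (log2 ratio 1.53), and those of Ikzf2, Ikzf4 and Ikzf5 span 0.

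**Figure D3:**
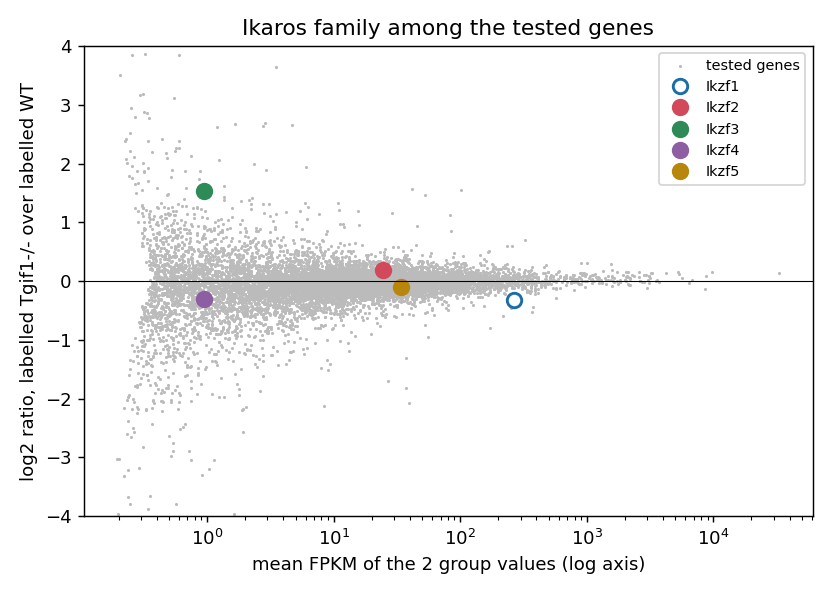
Log2 ratio, labelled Tgif1-/- over labelled WT, against the mean of both group values (log axis) for all tested genes with values above 0 in both groups (grey) and the 5 Ikaros family genes (coloured, Ikzf1 open); 10 tested genes beyond 4 on the log2 scale are off the axis. Ikzf2, Ikzf4 and Ikzf5 lie inside the grey cloud, Ikzf3 lies near its upper edge at 1.53, and Ikzf1 near its lower edge at -0.32.

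The positions of the table are those of a mouse build that the sources used here do not name. Counting from 1, it lists Ikzf1 at chromosome 11, 11585006 to 11672929, Ikzf2 at chromosome 1, 69577788 to 69732534, Ikzf3 at chromosome 11, 98326216 to 98407345, and Ikzf4 at chromosome 10, 128067899 to 128083047. None of these starts matches GRCm38, although the spans of Ikzf1, Ikzf3 and Ikzf4 have the same length there.

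The chromatin partners of Ikaros had 0 genes called by Cuffdiff, which in lists this short lies near the 0.662% called among all tested genes. NuRD, through which Ikaros represses and activates genes, had all 14 listed subunits at 21.7 FPKM or more in both groups. Of its 7 tested subunits 6 were lower and 1 higher in cells labelled Tgif1-/-, where 57.4% of all tested genes were lower. Cuffdiff called 0, and 0 had an unadjusted p under 0.05, beside 5.41% of all tested genes. Their log2 ratios ran from -0.15 to 0.04 with a median of -0.07. The smallest p-values in the authors' deposited table belonged to Mta2, at 69.2 FPKM in cells labelled Tgif1-/- and 76.9 FPKM in cells labelled WT (p = 0.249), and to Chd4, the remodelling ATPase of the complex, at 95.7 FPKM in cells labelled Tgif1-/- and 101 FPKM in cells labelled WT (p = 0.407). The tests of the other 7 subunits failed.

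Other chromatin partners, the SWI/SNF, Sin3 and CtBP proteins, gave 8 lower and 1 higher of 9 tested. Of all tested genes, 57.4% were lower. Cuffdiff called 0 of these partners, beside 0.662% of all tested genes, and 0 had an unadjusted p under 0.05, beside 5.41%. In a list this short both lie near those shares. The median log2 ratio of the tested partners was -0.13, beside -0.03 over all tested genes. Sin3a, the scaffold of a histone deacetylase complex, stood at 223 FPKM in cells labelled Tgif1-/- and 267 FPKM in cells labelled WT (p = 0.0624 in the authors' deposited table), and Smarca4, the ATPase Brg1, at 52.1 FPKM in cells labelled Tgif1-/- and 58.9 FPKM in cells labelled WT (p = 0.231). Another 7 tests failed.

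Enzymes that modify Ikaros or, with cereblon, mark it for degradation in human cells given thalidomide analogs showed 4 higher and 3 lower of 7 tested. None was called by Cuffdiff, beside 0.662% of all tested genes, and none had an unadjusted p under 0.05, beside 5.41%. In a list this short both lie near those shares. The median log2 ratio was 0.04. The smallest p-values belonged to Rbx1, the RING subunit of cullin ligases, at 39.6 FPKM in cells labelled Tgif1-/- and 36.5 FPKM in cells labelled WT (p = 0.0852 in the authors' deposited table), and Ppp1cb, a catalytic subunit of protein phosphatase 1, at 129 FPKM in cells labelled Tgif1-/- and 122 FPKM in cells labelled WT (p = 0.166). The tests of 5 others failed, and 1 listed gene was not analysed here.

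Genes that Ikaros proteins are known to bind or regulate in lymphoid cells were the only one of the 5 lists of partners and linked genes with called members. Of 13 tested, 10 were lower and 3 higher in cells labelled Tgif1-/-, where 57.4% of all tested genes were lower. Of these, 3 were called lower (0.373% of all tested genes were) and 0 higher (0.289%), and the median log2 ratio was -0.53. The called genes were Igll1, a surrogate light chain gene and a classic target of Ikaros repression in pre-B cells, Blnk, an adaptor of the pre-B cell receptor that Ikaros activates, and Ebf1, a B lineage transcription factor. Igll1 fell to 12.7 FPKM in cells labelled Tgif1-/-, against 40.9 FPKM in cells labelled WT, or -1.69 ± 0.17 on the log2 scale (implied standard error; q listed as 0 in the authors' deposited table). Blnk fell to 4.24 FPKM in cells labelled Tgif1-/-, against 11.8 FPKM in cells labelled WT, or -1.48 ± 0.24 (q = 1.04e-06 in the authors' deposited table). Ebf1 fell to 3.13 FPKM in cells labelled Tgif1-/-, against 13.7 FPKM in cells labelled WT, or -2.13 ± 0.50 (q = 0.00684 in the authors' deposited table). All 3 are also B cell markers, which as a group were lower, and the list was drawn up with these calls known, so its count is no independent support for a direction.

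At an unadjusted p under 0.05, 6 linked genes were lower (3.55% of all tested genes were), the called ones and 3 further genes that are named after their values were seen. The further genes were Vpreb1, the other surrogate light chain gene (2.63 FPKM in cells labelled Tgif1-/- and 5.45 FPKM in cells labelled WT, q = 0.0747 in the authors' deposited table; its near-identical copy Vpreb2 leaves its reads uncertain), Dntt, the polymerase that adds bases at antigen receptor joints (302 FPKM in cells labelled Tgif1-/- and 437 FPKM in cells labelled WT, q = 0.165), and Il7r, a cytokine receptor of lymphoid progenitors (8.84 FPKM in cells labelled Tgif1-/- and 13.6 FPKM in cells labelled WT, q = 0.522). Igll1 and Dntt are known as genes that Ikaros represses and Blnk as one that it activates. The part of Ikaros in the values of the linked genes was not tested. The tests of 6 linked genes failed. Among them, Flt3, the receptor that marks lymphoid-primed progenitors, stood at 118 FPKM in cells labelled Tgif1-/- and 136 FPKM in cells labelled WT, and Rag2, a subunit of the recombinase, at 11.2 FPKM in cells labelled Tgif1-/- and 19.2 FPKM in cells labelled WT. Myc, a growth regulator, stood at 322 FPKM in cells labelled Tgif1-/- and 310 FPKM in cells labelled WT. Failed tests leave these pairs without an error.

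Transcription factors that act beside Ikaros in progenitors had 4 lower and 2 higher of 6 tested, where 57.4% of all tested genes were lower. Cuffdiff called 0, beside 0.662% of all tested genes. At an unadjusted p under 0.05 there was 1, on the lower side, beside 3.55% of all tested genes on that side. In lists this short these counts lie near the shares over all tested genes. The median log2 ratio was -0.16. The smallest p-values in the authors' deposited table belonged to Tcf3, the E protein E2A, at 66.0 FPKM in cells labelled Tgif1-/- and 83.0 FPKM in cells labelled WT (p = 0.0215, q = 0.628), and Bcl11a, needed for lymphoid development, at 146 FPKM in cells labelled Tgif1-/- and 164 FPKM in cells labelled WT (p = 0.0634). The tests of 8 others failed, as that of Ikzf1 did, with 7 lower and 1 higher, and 2 listed genes were not analysed here. Among the failed ones, Notch1, the receptor that drives T lineage entry, stood at 78.1 FPKM in cells labelled Tgif1-/- and 108 FPKM in cells labelled WT. Gata2, a stem cell and mast cell factor, stood at 68.4 FPKM in cells labelled Tgif1-/- and 54.7 FPKM in cells labelled WT. Smaller differences stood at Runx1, a stem cell emergence factor (72.3 FPKM in cells labelled Tgif1-/-, 75.6 FPKM in cells labelled WT), Myb, a progenitor transcription factor (247 FPKM in cells labelled Tgif1-/-, 254 FPKM in cells labelled WT), Satb1, a chromatin organiser (330 FPKM in cells labelled Tgif1-/-, 342 FPKM in cells labelled WT), and Tcf12, an E protein (41.7 FPKM in cells labelled Tgif1-/-, 43.1 FPKM in cells labelled WT). The log2 ratios of the 8 failed factors ran from -0.68 to 0.32, and that of Ikzf1 was -0.32, all without a test.

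**Figure D4:**
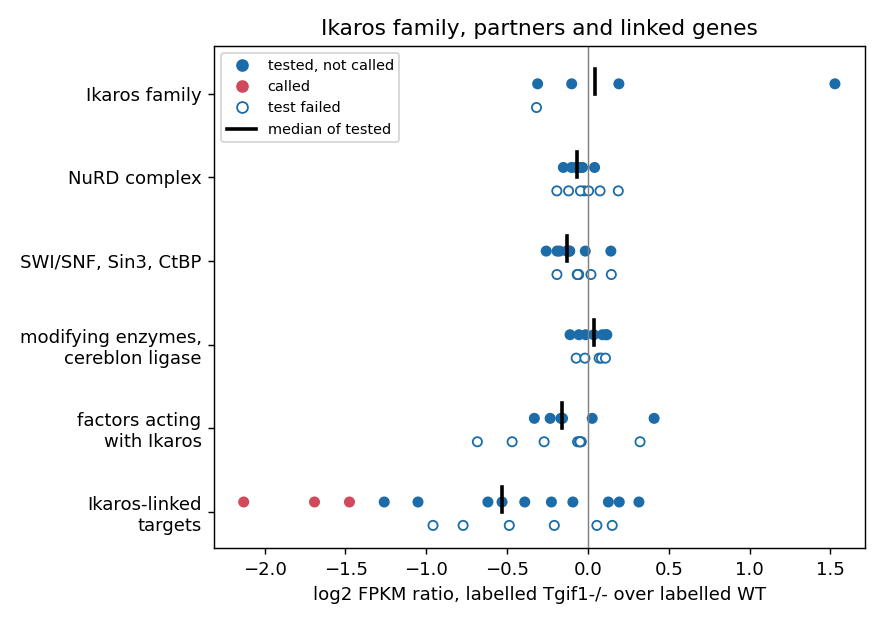
Log2 FPKM ratio, labelled Tgif1-/- over labelled WT, of each gene of the Ikaros family and of 5 lists of partners and linked genes; filled points are tested genes, red ones are called at a q at or under 0.05, open ones have a failed test, and black bars are medians of tested genes. The 3 red points, Ebf1, Igll1 and Blnk, lie between -2.13 and -1.48 in the list of Ikaros-linked targets, while NuRD subunits with a test lie between -0.15 and 0.04.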

How the data were processed

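Per the submitters' processing notes, reads were handled with TopHat (alignment) and Cuffdiff (group comparison), without versions; the notes name hg19, a human build, although the identifiers are mouse. The deposited table gives 1 FPKM value per group, computed by the authors. Per the file headers it also holds the authors' log2 fold change (WT on top, turned round here), test statistic score, p-value and q-value. The log2 ratios printed are of the deposited FPKM values, and log2 ratio over statistic served as the implied standard error. Deposited q-values matched a Benjamini-Hochberg adjustment over the 10730 tested genes (all within 0.001). The table holds group values and none per sample, so depth and replicate spread are not known from it. Members and lists were chosen with earlier results of these data known. Named genes were all 5 members, Tgif1, Kit, Ly6a, and for each list its called members or, with none, the 2 with the smallest p, plus failed members of 2 lists at 10 FPKM or more, of which 1 is not reported here. Of the genes listed, 3 were not analysed here. Finger sequences come from GENCODE M21 transcripts. Python 3.11.15, pandas 2.3.3, numpy 2.4.6, scipy 1.17.1 and Biopython 1.88 were used. The adjustment and error floor were run on simulated data drawn with the implied errors as the true ones. Such data cannot show whether the floor corrects errors that are too small.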

Additional observations from a re-analysis of the deposited data

How the results depend on the processing

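None of the 4 tested Ikaros family genes was called at q thresholds of 0.01 and 0.1 or with an error floor. The same held with adjustment over genes with at least 1 or 5 FPKM in a group (Ikzf3 and Ikzf4 lie under 5). The threshold of 0.01 could not have added a call, and the error floor only raises errors, so these 2 runs are no check on missed calls. Ikzf1 has no test in any run. The log2 ratio of Ikzf3 dropped to 0.69 with a pseudocount of 1 FPKM, as its values are near that pseudocount, and the other members' ratios kept their sign and moved by less than the implied error (for Ikzf1, the median error of tested genes of its level) with pseudocounts of 0.1 and 1 and after centring. The family median was 0.05 over tested members and -0.10 with Ikzf1 included. Leaving Ctbp2 out of the SWI/SNF, Sin3 and CtBP list, chosen after seeing the data, left its median at -0.13. The count of called genes was 71 as deposited, 39 at a q of 0.01, 46 over genes with at least 5 FPKM and 21 with the error floor. Leaving out samples was not run because the table holds no value per sample. No paired analysis was possible because the groups share no replicate numbers (1 to 3 and 4 to 6) and have 1 value each. Depth is not known from the table, so what it limits was not measured.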

Other observations

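Outside the lymphoid genes, 8 of 10 tested megakaryocyte markers were higher in cells labelled Tgif1-/- and 2 lower. Of all tested genes, 57.4% were lower. At an unadjusted p under 0.05, 3 of the markers were higher, beside 1.85% of all tested genes, and 1 lower, beside 3.55%. The 1 called higher, beside 0.289% of all tested genes, was Rab27b, named after its value was seen (q = 0.0141 in the authors' deposited table). Its call was lost under the error floor, where the adjusted p was 1.00. The list summed to 358 FPKM in cells labelled Tgif1-/- and 294 FPKM in cells labelled WT. All 7 tested neutrophil markers were lower, beside 57.4% of all tested genes, with a median log2 ratio of -0.85. Of these, 4 had an unadjusted p under 0.05, beside 3.55% of all tested genes on the lower side, and 0 were called by Cuffdiff, beside 0.373%. The list summed to 3771 FPKM in cells labelled Tgif1-/- and 4160 FPKM in cells labelled WT, most of it from Mpo, a granule enzyme gene with a failed test (3055 FPKM in cells labelled Tgif1-/- and 3289 FPKM in cells labelled WT). Their part in the values of the Ikaros family was not tested.

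The position block that the table gives for Ikzf5 holds 33 genes, of which 16 were tested and 0 called by Cuffdiff, beside 0.662% of all tested genes. Of those with a test, 7 were higher and 9 lower in cells labelled Tgif1-/-, where 57.4% of all tested genes were lower. Their median log2 ratio was -0.02. These counts, and the 1 gene with an unadjusted p under 0.05 (5.41% of all tested genes had one), lie near the shares over all tested genes. That gene, named after its value was seen, was Tacc2, a centrosome-associated protein gene, at 2.71 FPKM in cells labelled Tgif1-/- and 3.54 FPKM in cells labelled WT (q = 0.102 in the authors' deposited table). Ctbp2, a corepressor that Ikaros binds, lies in the same block, at 15.7 FPKM in cells labelled Tgif1-/- and 15.9 FPKM in cells labelled WT.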
